A study of Mus musculus with 16 samples.

Results

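Expression of 9 genes of glycogen turnover and glucose production was followed in the livers and kidneys of mice kept under a fixed or a shifting light schedule. The members were Gys2, Ppp1r3b, Ppp1r3c and Ppp1r3g of glycogen synthesis, Pygl of glycogen breakdown, Pck1, Fbp1 and G6pc of gluconeogenesis, and the glucose transporter gene Slc2a2. They were picked by gene symbol from the deposited tables of the 2 organs, which list 32989 genes each, and every symbol occurred on 1 row. The mice were male C57BL/6J, an inbred strain, exposed for 85 weeks to a light schedule and aged 97 weeks. LD-conditioned mice had light from 8:00 to 20:00, and ADV-conditioned mice had the same cycle advanced by 8 h every 4 days, a chronic jet lag condition. Each condition held 4 mice (L63, L65, L86 and L104 in LD; A75, A91, A94 and A115 in ADV), each mouse gave 1 liver and 1 kidney library. No transgene, allele or agent is named for any of them.

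The liver stores glucose as glycogen after feeding and releases it between meals, first from glycogen and then by gluconeogenesis, the synthesis of glucose from lactate, glycerol and amino acids. The kidney cortex also makes glucose, mainly in the proximal tubule, but stores little glycogen. Several of these genes follow the daily feeding cycle and are under hormonal control by insulin, glucagon and glucocorticoids, and in the liver many are also rhythmic through the circadian clock.

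Levels are given as FPKM, fragments per kilobase of exon and per 1000000 fragments of the library, so that levels of different genes can be compared per length. The libraries held 22742500 to 26287000 fragments in liver and 17115700 to 19702200 in kidney, and 1 fragment on a gene of 1 kb of exon corresponded to 0.0380 to 0.0584 FPKM. Hepatocyte markers summed to 58025 to 71538 FPKM in the livers and to 742 to 1099 in the kidneys, and proximal tubule markers to 18683 to 46328 in the kidneys and to 31.96 to 40.3 in the livers, so each tissue matched its label. Among the kidneys, A115 stood apart with 33.8% of its fragments on mitochondrial genes against 15.7 to 18.02% in the LD kidneys and 9.43 to 13.1% in the other 3 ADV kidneys, and A94 stood apart in both organs with leukocyte markers at 183 FPKM in liver (21.0 to 30.4 in the others) and 232 FPKM in kidney (22.7 to 65.8 in the others). The libraries came from 2 sequencing providers with different instruments, and which library came from which is not given in the sources used here, so a provider effect and the light condition cannot be told apart. The organs of both conditions were taken within the same window of hours after the last light onset. The paper describes the activity of ADV-conditioned mice as failing to resynchronize after the shifts. The internal phase at sampling and the light condition therefore cannot be told apart.

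Differences between conditions were tested within each organ by limma on log2(FPKM + 0.1) over all genes above 0.5 fragments per 1000000 on average, and log2 fold changes are on that scale, which understates the change of genes with low levels. Single members were also compared by a two-sided exact permutation test over the 70 assignments of the mice, whose smallest possible p is 0.0286. In bulk tissue, fewer cells of a type and less RNA per cell cannot be told apart.

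The control of gluconeogenesis genes is known to run through short elements in their promoters, and the promoters of Pck1 and G6pc are shown because these were the members with no overlap between the conditions in the kidney. RefSeq promoter windows (GRCm38.p6, 250 bases before to 50 bases after the start site) were found for 7 of the 9 members, all but Gys2 and Ppp1r3b. Both sequences run 5′ to 3′ over the 250 bases before the start site, on the plus strand, at chr2:173152823-173153072 for Pck1 and chr11:101367466-101367715 for G6pc. Capitals mark the match to a cAMP response element in Pck1 and to a nuclear receptor half-site in G6pc.

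Pck1: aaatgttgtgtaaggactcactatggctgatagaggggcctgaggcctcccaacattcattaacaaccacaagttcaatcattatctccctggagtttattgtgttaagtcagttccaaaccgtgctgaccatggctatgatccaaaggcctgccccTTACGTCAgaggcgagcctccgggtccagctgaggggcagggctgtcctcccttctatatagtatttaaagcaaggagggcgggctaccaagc

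G6pc: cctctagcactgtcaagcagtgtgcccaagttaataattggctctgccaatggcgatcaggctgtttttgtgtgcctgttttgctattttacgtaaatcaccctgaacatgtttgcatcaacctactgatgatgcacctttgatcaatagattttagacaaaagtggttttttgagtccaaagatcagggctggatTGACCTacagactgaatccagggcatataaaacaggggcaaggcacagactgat

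The 5 motifs searched on both strands of each window were the E-box CACGTG bound by CLOCK and BMAL1, the cAMP response element TGACGTNA, the D-box TTATGTAA, the FOXO site GTAAACA and the nuclear receptor half-site AGGTCA. The Pck1 match began 93 bases before the start site, as the reverse complement of the element as spelled, and 2.93% of the 32851 mouse promoter windows of this length held such an element. The G6pc half-site, also on the opposite strand, began 54 bases before the start site, and 16.3% of all windows held 1. Half-sites were found as well in Slc2a2 and Pygl, and an E-box, present in 7.15% of all windows, was found in Ppp1r3c before the start site. No window of the 7 held the letters of the D-box (0.938% of all windows) or the FOXO site (3.65%). A match is a run of letters in a window and was not tested as a binding site.

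In the liver, levels of 2 of the 9 members did not overlap between the conditions, Gys2 and Pck1, and both were lower in every ADV-conditioned mouse than in any LD-conditioned mouse. No member passed limma at an adjusted p of 0.05 (0 of 9), as did 0.00779% of the 12835 genes tested, 1 gene in all. At an unadjusted p under 0.05, 4 members were lower in ADV (Gys2, Pck1, Fbp1 and Ppp1r3g) and none was higher, where 3.13% of all genes tested were lower. Over all genes, complete separation with ADV below LD was found for 1.89%. The median log2 fold change of the 9 members was −0.42 and that of all genes tested was 0.10, which moved to −0.00195 when libraries were scaled by the median ratio. That scaling raised the number of genes lower at an unadjusted p under 0.05 from 402 to 936 and left the count of members at 4. With 1 mouse left out the count of members ran from 3 to 5, and it was 3 without A94 and 3 without A115.

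Gys2 (chr6:142422613-142473109, minus strand, mm10), which encodes the liver glycogen synthase that adds glucose units to the growing chain, had the lowest p of the members in liver. LD livers held 146, 120, 85.9 and 90.9 FPKM and ADV livers 52.9, 58.2, 39.0 and 44.3. The highest ADV level lay well below the lowest LD level, and the means were 110.6 ± 27.9 in LD and 48.6 ± 8.56 in ADV (SD, n = 4), so the ADV mean was 43.9% of the LD mean. The log2 fold change was −1.17 ± 0.19 (SE), the sixth smallest p of the 12835 genes, with a limma adjusted p of 0.210 that ranged from 0.0830 to 0.588 over the alternatives, and an exact permutation p of 0.0286. Without A94 the log2 fold change was −1.07, and without A115 it was −1.13.

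The markers of other cells moved with these libraries. In liver, the 6 fibroblast and stellate cell markers summed to 117 to 134 FPKM in LD and 163 to 356 in ADV, and the leukocyte markers to 21.0 to 25.9 in LD and 26.4 to 183 in ADV. The 4 cholangiocyte markers summed to 2.36 to 3.11 FPKM in LD livers and to 18.8, 1.98, 4.35 and 9.92 in A75, A91, A94 and A115. The hepatocyte sums overlapped, at 58025 to 71538 in LD and 58100 to 66875 in ADV. Among zonal markers, those of periportal hepatocytes summed to 988 to 1090 in LD and 855 to 1138 in ADV, and those of pericentral hepatocytes to 5706 to 6618 in LD and 4482 to 5741 in ADV. The part of these shifts in the member levels was not tested.

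**Figure D1:**
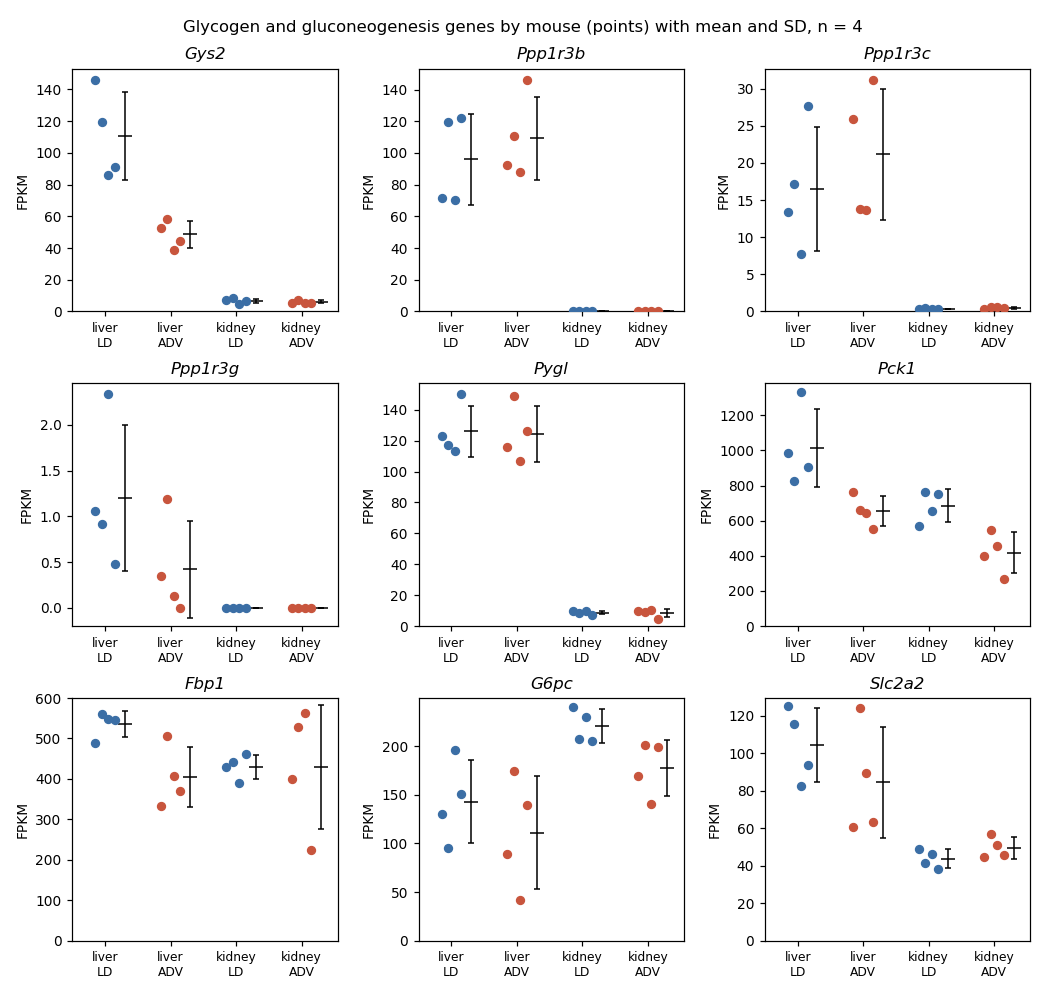
FPKM of each member (y axis) in the liver and kidney of LD-conditioned (blue) and ADV-conditioned (red) mice. Each point is 1 mouse, and the bar beside it gives the mean and SD of 4 mice. Gys2 and Pck1 in liver and Pck1 and G6pc in kidney show no overlap, and Ppp1r3g is at 0 in all kidneys.

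The regulatory subunits that bring protein phosphatase 1 to glycogen, where it activates the synthase and inactivates the phosphorylase, overlapped between the conditions. Ppp1r3b (chr8:35375741-35388139, plus strand), the main subunit of this kind in liver, was at 71.7, 120, 70.4 and 122 FPKM in LD and 92.5, 111, 87.9 and 146 in ADV. The groups overlapped, with a log2 fold change of 0.21 ± 0.23 (SE) and a limma adjusted p of 0.694. Ppp1r3c (chr19:36731731-36736604, minus strand), which encodes the subunit known as PTG, held 13.4, 17.2, 7.77 and 27.6 FPKM in LD livers and 25.9, 13.8, 13.7 and 31.2 in ADV livers. It varied 3.56-fold among the LD mice alone, and its log2 fold change of 0.40 ± 0.40 (SE) did not pass (limma adjusted p = 0.654).

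Ppp1r3g (chr13:35967906-35970388, plus strand), a subunit known for induction by fasting, was the lowest of the members in liver. LD livers held 1.06, 0.915, 2.33 and 0.478 FPKM, from 60, 52, 141.5 and 27 fragments, and ADV livers held 0.352, 1.19, 0.133 and 0, from 19, 63.5, 7 and 0 fragments. All 4 ADV levels lay below the LD mean, but that of A91 exceeded 3 of the 4 LD levels. The log2 fold change of −1.73 ± 0.73 (SE) had a limma adjusted p of 0.409 and an exact permutation p of 0.114, and it depended on the pseudocount, with −0.63 at a pseudocount of 1.

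Pygl (chr12:70190815-70227683, minus strand), the liver glycogen phosphorylase that releases glucose 1-phosphate from glycogen, was nearly the same in both conditions. Its levels were 123, 117, 114 and 150 FPKM in LD and 116, 149, 107 and 126 in ADV, means of 126 ± 16.4 and 125 ± 18.2 (SD, n = 4). The log2 fold change was −0.02 ± 0.13 (SE; limma adjusted p = 0.955), and its sign changed when A75, A94 or L104 was left out.

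Ratios within a library do not depend on its scaling, and they set the synthase against the other glycogen genes. Gys2 to Pygl was 1.19, 1.02, 0.756 and 0.606 in LD livers and 0.455, 0.390, 0.366 and 0.351 in ADV livers, with no overlap. Gys2 to Ppp1r3b was 2.04, 0.9996, 1.22 and 0.745 in LD and 0.571, 0.526, 0.444 and 0.304 in ADV, again with no overlap. Gys2 alone already separated the conditions, whereas Pygl and Ppp1r3b overlapped, so these ratios are not evidence separate from the Gys2 levels. Gys2 to Gys1, the other synthase isoform, overlapped, at 133 to 295 in LD livers and 42.2 to 135 in ADV livers. In the kidney Gys2 to Pygl ran from 0.492 to 0.996 in LD and from 0.534 to 1.26 in ADV, and the conditions overlapped.

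**Figure D2:**
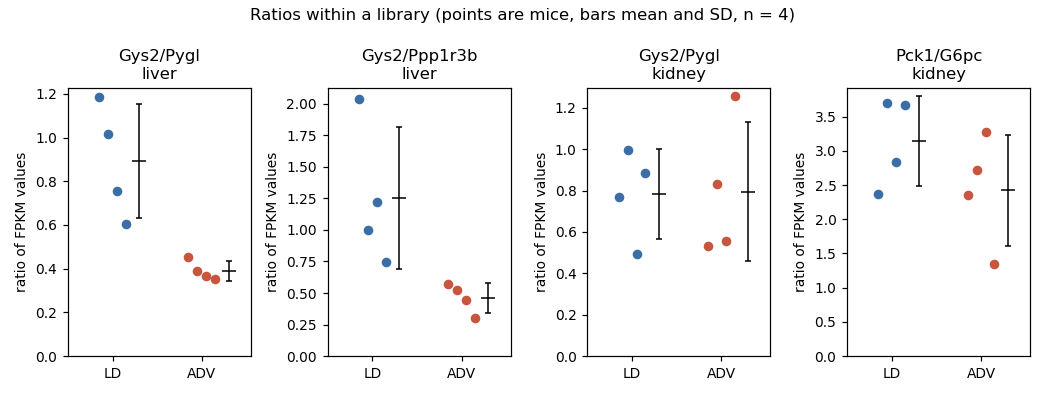
Ratios of FPKM values within a library (y axis) for LD-conditioned (blue) and ADV-conditioned (red) mice, 1 point a mouse, with mean and SD of 4 mice. In liver the 4 ADV ratios of Gys2 to Pygl, 0.351 to 0.455, sit below the 4 LD ratios, 0.606 to 1.19, and in kidney both pairs overlap.

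Among the gluconeogenesis genes of the liver, Pck1 (chr2:173153073-173159254, plus strand) encodes cytosolic phosphoenolpyruvate carboxykinase, which turns oxaloacetate into phosphoenolpyruvate at the start of the pathway. It had the highest level of all members, with 985, 825, 1330 and 905 FPKM in LD and 763, 662, 645 and 555 in ADV. The ADV values all lay below the LD values, and the ADV mean of 656 ± 85.4 was 64.9% of the LD mean of 1011 ± 222 (SD, n = 4). Its log2 fold change was −0.61 ± 0.17 (SE), with a limma adjusted p of 0.299 (0.189 to 0.642 over the alternatives) and an exact permutation p of 0.0286. The value was −0.60 without A94 and −0.53 without A115.

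Fbp1 (chr13:62864753-62888282, minus strand), fructose 1,6-bisphosphatase, acts in the middle of the pathway and had LD levels within a narrow range. It was at 489, 560, 548 and 545 FPKM in LD and at 333, 505, 408 and 370 in ADV. A91 alone, at 505, reached into the LD range, and the log2 fold change of −0.42 ± 0.14 (SE) had a limma adjusted p of 0.349 and an exact permutation p of 0.0571.

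G6pc (chr11:101367716-101377903, plus strand), the catalytic subunit of glucose 6-phosphatase, which carries out the last step of both glycogen breakdown and gluconeogenesis, differed widely from mouse to mouse. LD livers held 130, 95.0, 196 and 150 FPKM and ADV livers 89.4, 174, 41.8 and 139, so that the ADV levels spanned 4.16-fold and the LD levels 2.07-fold. The groups overlapped, and the log2 fold change of −0.50 ± 0.41 (SE; limma adjusted p = 0.592) was −0.09 without A94, the library with the high leukocyte markers and the lowest G6pc. The ratio of Pck1 to G6pc ran from 3.80 in A91 to 15.4 in A94, both ADV livers.

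Slc2a2 (chr3:28697903-28728361, plus strand), the low-affinity transporter GLUT2 of the hepatocyte membrane, was at 125, 116, 82.3 and 93.8 FPKM in LD livers and 60.5, 124, 89.7 and 63.3 in ADV livers. The level of A91 was near the top of the LD range and those of A75 and A115 lay below it, with a log2 fold change of −0.35 ± 0.23 (SE; limma adjusted p = 0.538). A91 had the highest ADV level of 6 members in liver, namely Gys2, Ppp1r3g, Pygl, Fbp1, G6pc and Slc2a2.

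In the kidney, levels of 2 of the 8 members tested did not overlap, Pck1 and G6pc, both lower in ADV, where 1.83% of the 14452 genes tested showed that separation. The 8 members passed limma in 0 cases, the share among all genes being 0%, while 448 genes had an unadjusted p under 0.05. Of the members only Pck1 had such a p, and 1.35% of all genes were lower at this limit. limma-voom on fragments recovered from the FPKM values called 0 genes in the kidney as well. Without A115, 2724 genes passed in place of 0, which was 18.8% of 14475, with 388 lower in ADV (2.68%) and a median log2 fold change of all genes of 0.20 in place of −0.02.

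Pck1 in kidney was at 567, 766, 654 and 754 FPKM in LD and at 399, 547, 459 and 268 in ADV. The lowest LD mouse, L63, and the highest ADV mouse, A91, were 567 and 547, so the gap between the groups was narrow. The ADV mean of 418 ± 117 was 61.0% of the LD mean of 685 ± 93.4 (SD, n = 4), with a log2 fold change of −0.75 ± 0.24 (SE), a limma adjusted p of 0.9999 and an exact permutation p of 0.0286. Without A115, which had the lowest level, the log2 fold change was −0.55 ± 0.16 (SE) and the limma adjusted p was 0.0431. With A115 left out and scaling by the median ratio, it was −0.75 with an adjusted p of 0.0346, where 16% of all genes were called and 7.9% were called lower. Over all alternatives the adjusted p of Pck1 in kidney ran from 0.0346 to 1.

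G6pc in kidney was at 240, 207, 230 and 205 FPKM in LD and at 170, 201, 140 and 199 in ADV. The lowest LD level, 205, and the highest ADV level, 201, were close, and with libraries scaled by the median ratio, rescaled without mitochondrial genes or quantile normalized they overlapped. The log2 fold change was −0.33 ± 0.16 (SE), with a limma adjusted p of 0.9999, and A94, not A115, had the lowest level. Without A115 it was −0.39 (adjusted p = 0.0756), and without A115 and with median ratio scaling −0.58 (adjusted p = 0.0444), within a range of 0.0444 to 1 over the alternatives.

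The other members in kidney overlapped between the conditions. Fbp1 held 430, 441, 390 and 461 FPKM in LD and 399, 529, 564 and 225 in ADV, and its log2 fold change of −0.09 became 0.19 without A115. Slc2a2 lay between 38.1 and 49.1 FPKM in LD and between 44.5 and 56.8 in ADV, with a log2 fold change of 0.18 ± 0.15 (SE; limma adjusted p = 0.9999). Gys2 lay between 4.74 and 8.25 FPKM in LD and between 5.39 and 7.43 in ADV, and Pygl between 7.31 and 9.64 in LD and between 4.49 and 10.2 in ADV, the lowest level being that of A115. Ppp1r3b and Ppp1r3c stayed at or below 0.579 FPKM in all 8 kidneys, on 8 to 43 fragments a library, with log2 fold changes of 0.42 ± 0.34 and 0.41 ± 0.22 (SE; limma adjusted p = 0.9999 for both).

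Beside the kidney values, proximal tubule markers summed to 27629 to 40683 FPKM in LD and 18683 to 46328 in ADV, distal nephron and collecting duct markers to 1845 to 2378 in LD and 1235 to 2978 in ADV, and leukocyte markers to 22.7 to 47.3 in LD and 22.8 to 232 in ADV. All 7 proximal tubule markers had a negative log2 fold change, with a median of −0.24, where 53.6% of all genes were lower. None of the 7 had an unadjusted limma p under 0.05. The 6 fibroblast and stellate cell markers summed to 41.0 to 73.2 FPKM in LD kidneys and to 122, 47.7, 157 and 129 in A75, A91, A94 and A115. All 6 had a positive log2 fold change in kidney, with a median of 0.97, and 3 had an unadjusted p under 0.05, but none was called. The part of these marker shifts in the lower Pck1 and G6pc levels was not tested. The mitochondrial share also set the conditions apart in kidney, since A75, A91 and A94 lay below every LD kidney and A115 above. With each library rescaled without mitochondrial genes, the log2 fold change was −0.74 for Pck1 and −0.32 for G6pc. A115 had the highest proximal tubule sum and the lowest distal sum. FPKM sums follow their highest markers, here Kap, with an LD log2 difference of liver minus kidney of −18.4. Slc5a2, another of the proximal tubule markers, was in A115 far below its level in the other kidneys. In that library several genes that act beside G6pc and Pck1 were far below the other kidneys. Slc37a4, the transporter that brings glucose 6-phosphate to the phosphatase, was at 8.15 FPKM against 60.01 to 107 in the other kidneys, Pcx, pyruvate carboxylase, at 7.24 against 91.4 to 134, and G6pc3, the ubiquitous phosphatase subunit, at 2.14 against 17.0 to 30.7. G6pc itself, at 199 FPKM in A115, and Slc2a2, at 45.5, were within the range of the other kidneys. The part of this library's state in the member values was not tested beyond leaving it out.

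**Figure D3:**
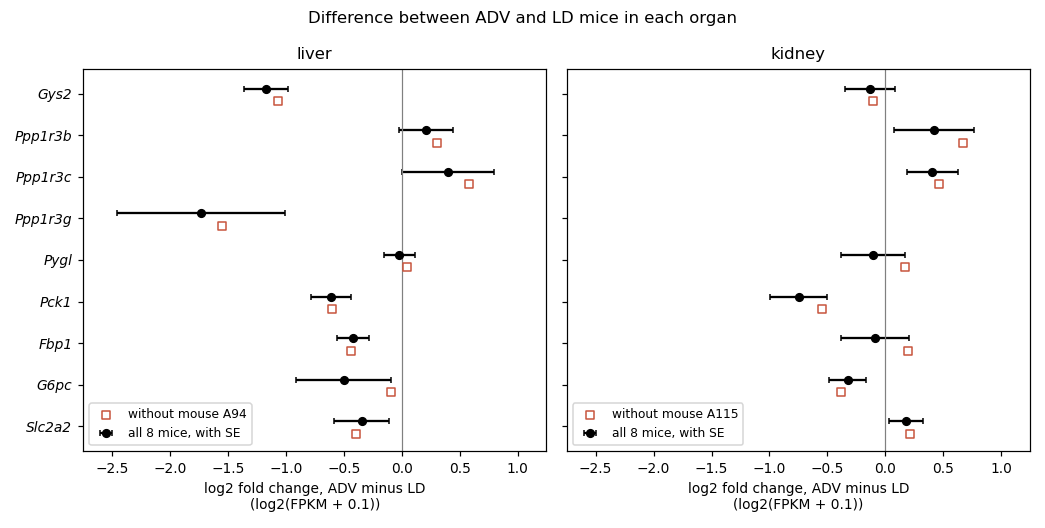
Log2 fold change of ADV minus LD (x axis) for each member tested in liver (left) and kidney (right). Filled points with bars give the estimate and SE from 8 mice, and open squares the estimate without A94 in liver and without A115 in kidney. Gys2 in liver is at −1.17 and −1.07, Pck1 lies below 0 in both organs, and G6pc in liver is at −0.09 without A94.

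The effect of ADV on each member was compared between the organs by the interaction of condition and organ in 1 limma fit of the 16 libraries. No member passed (0 of 9), nor did any gene of the 14968 tested (0%), while 556 genes had an unadjusted p under 0.05. Gys2 had the smallest interaction p of the members, with a fold change of −1.17 in liver and −0.13 in kidney and a difference of −1.04 ± 0.29 (SE; limma adjusted p = 0.99996). Without A115 its adjusted p was 0.0872, the lowest over the alternatives, and 411 genes passed, 3 of them among the 101 further genes of these pathways. For Pck1 the 2 organs gave −0.61 and −0.75, a difference of 0.14 ± 0.31 (SE).

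Levels in the organs themselves were compared within each condition. In LD mice 7 of 9 members were higher in liver (limma, adjusted p under 0.05), and in ADV mice 7 were higher and 1, G6pc, was lower in liver. Over all 14968 genes, 66.6% were called in LD and 62.9% in ADV, and 11.1% and 11.2% of all genes tested were called higher in liver. The organ scaling matters here. The median log2 difference of all genes was −0.80 in LD, and it was −0.05 after scaling by the median ratio, which turned a split of 1656 higher and 8310 lower genes into 3703 and 4523. The calls of Gys2, Pygl, Ppp1r3b, Ppp1r3c and Slc2a2 were made under every alternative.

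Ppp1r3b was the most organ-restricted of the members with values in both organs, at a mean of 95.9 FPKM in LD liver and 0.221 in LD kidney, 434-fold apart (log2 difference 8.22 ± 0.30, SE; limma adjusted p = 2.6e-12). Ppp1r3c differed 49.4-fold, Gys2 16.5-fold and Pygl 14.5-fold in the LD mice. In ADV mice the same folds were 322, 44.2, 8.06 and 14.8. With median ratio scaling the LD log2 differences rose from 8.22, 5.12, 4.02 and 3.84 to 8.90, 5.84, 4.83 and 4.65, in the same order. Ppp1r3g had no fragment in any of the 8 kidneys, where 3 fragments over the group of 4 would correspond to 0.0181 FPKM in LD, which makes it at least 66.1-fold higher in LD liver and at least 24.0-fold higher in ADV liver. These bounds rest on single mice, since they were 34.4 in LD without L86 and 7.07 in ADV without A91, which held most of the ADV liver fragments. Livers and kidneys overlapped through A115, listed at 0 in both. The ADV difference was called (limma adjusted p = 0.0154), and the call was lost at pseudocounts of 0.5 (0.0660) and 1 (0.106), without A75 (0.0712) and without A91 (0.0791).

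The gluconeogenesis genes differed less between the organs as deposited, and their differences also moved with the scaling. Pck1 was 1.48-fold higher in liver than in kidney in LD mice and 1.57-fold in ADV mice, and the liver was higher in 8 of 8 mice. Its limma adjusted p was 0.0396 in LD and 0.0135 in ADV, but quantile normalization turned the LD difference to −0.26 and took the ADV difference to 0.25 (adjusted p = 0.307). Median ratio scaling instead gave 1.36 in LD and 1.43 in ADV, with adjusted p of 4.2e-05 and 2.9e-05. The LD call was also lost with no filter (0.0699) and without mitochondrial genes (0.0667), the ADV call was lost without A75 (0.0718), and leaving out L63, L86, L104 or A75 raised the LD adjusted p above 0.05 (0.0519 to 0.206). G6pc was lower in liver in 8 of 8 mice, with kidney 1.54-fold above liver in LD (adjusted p = 0.0987) and 1.597-fold in ADV (adjusted p = 0.0437), and with median ratio scaling the log2 difference was 0.14 in LD and −0.11 in ADV. Without A94 the LD difference of G6pc was called (adjusted p = 0.0192). The ADV call of G6pc was lost with no filter, under quantile normalization and when any of 6 mice, all but A91 and A115, was left out. Fbp1 was higher in liver in 5 of 8 mice and was not called in either condition (adjusted p = 0.254 and 0.951), although median ratio scaling gave 1.13 in LD and 0.72 in ADV with adjusted p of 0.000106 and 0.00505. Slc2a2 was 2.38-fold higher in liver in LD and 1.71-fold in ADV, and its ranges in the organs did not overlap. Its log2 difference was 1.24 in LD and 0.72 in ADV, and 2.05 and 1.45 with median ratio scaling.

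The order of the mean levels in LD liver was Pck1, Fbp1, G6pc, Pygl, Gys2, Slc2a2, Ppp1r3b, Ppp1r3c and Ppp1r3g, of which the 5 from G6pc to Ppp1r3b overlapped with their neighbours. In LD kidney it was Pck1, Fbp1, G6pc, Slc2a2, Pygl, Gys2, Ppp1r3c, Ppp1r3b and Ppp1r3g, and only Pygl with Gys2 and Ppp1r3c with Ppp1r3b overlapped. The first 3 places were thus taken by the same 3 gluconeogenesis genes in both organs.

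Each member is 1 of several isoforms, and Gys2, Pygl, Pck1, Fbp1, G6pc, Ppp1r3b and Slc2a2 held most of their family's FPKM in liver, whereas Ppp1r3c and Ppp1r3g did not. Gys2 made up 97.7 to 99.7% of the glycogen synthase FPKM in liver, the rest being Gys1, the synthase of muscle and most other tissues, and 27.8 to 72.3% in kidney, where the upper bound was A115 and the other 7 reached at most 44.1%. Pygl made up 95.9 to 99.4% of the phosphorylases in liver and 37.7 to 51.8% in kidney, where Pygb, the brain form, held 38.7 to 54.2% and Pygm, the muscle form, 5.84 to 11.5%. Pck1 held at least 98.7% of its family with Pck2, the mitochondrial form, in every library of both organs. Fbp1 held at least 99.9% in liver and 95.4 to 97.6% in kidney, where Fbp2, the muscle form, lay between 7.04 and 18.8 FPKM.

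G6pc held 92.8 to 99.1% of the FPKM of G6pc and G6pc3 in liver and 82.4 to 98.9% in kidney. Of the 7 subunits that target protein phosphatase 1 to glycogen, Ppp1r3b held 76.4 to 86.6% and Ppp1r3c 9.34 to 21.4% in liver. In kidney Ppp1r3e led with 52.8 to 65.0% of a far smaller sum, and Ppp1r3b held 3.21 to 11.3%. Slc2a2 held 74.3 to 84.9% of 9 facilitated glucose transporters in liver and 37.6 to 73.7% in kidney, both kidney bounds being ADV libraries and the upper that of A115, without which it was at most 51.9%.

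**Figure D4:**
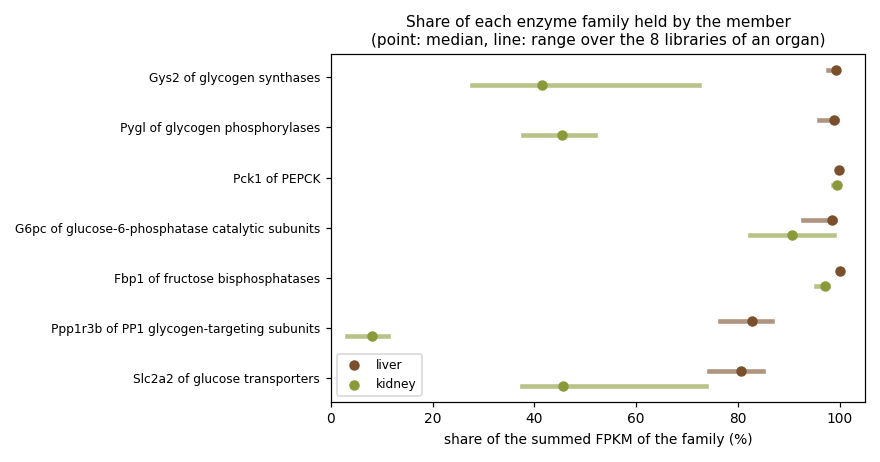
Share of the summed FPKM of an enzyme family (x axis, %) held by its member in liver (brown) and kidney (green). Points are medians and lines ranges over the 8 libraries of an organ. Pck1, G6pc and Fbp1 dominate in both organs, and Gys2, Pygl, Ppp1r3b and Slc2a2 hold larger shares in liver.

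The isoforms that are no members were low in liver and showed no called difference between the conditions. In liver Gys1 was at 0.578 FPKM in LD and 0.649 in ADV, Pck2 at 0.763 and 1.30, and Pygb at 0.937 and 2.21, the ADV mean of Pygb including 4.17 FPKM in A94. Pygb had a log2 fold change of 1.02 ± 0.36 (SE; limma adjusted p = 0.366), and of 0.67 without A94. Its ADV livers, at 1.27 to 4.17 FPKM, all lay above its LD livers, at 0.621 to 1.16 (exact permutation p = 0.0286). Pygm, at 0.239 and 0.289, and Fbp2, at most 0.232 FPKM in every liver, were near the detection limit. Slc37a4, at 101.7 and 88.7, and Pcx, at 83.8 and 69.8, had log2 fold changes of −0.18 and −0.26 in liver.

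Slc2a1, the GLUT1 transporter, was at 4.13 and 4.06 FPKM in liver and 17.6 and 23.2 in kidney. Slc5a2, the sodium-glucose cotransporter of the proximal tubule, was at 62.2 to 82.4 FPKM in LD kidneys and 113 to 150 in 3 ADV kidneys, with 7.51 in A115. Its log2 fold change was −0.16 with all mice (limma adjusted p = 0.9999), 0.87 without A115 (0.0111) and 0.67 without A115 under median ratio scaling (0.0286).

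Of 102 further genes of the same pathways in 7 lists, 101 were found and 94 were tested in each organ. None passed limma at an adjusted p of 0.05 in liver or kidney with all mice, and none did in the interaction. At an unadjusted p under 0.05, 16 differed in liver, 8 higher and 8 lower in ADV, which is 17.0% against 11.8% of all genes tested, and 2 differed in kidney, both lower, 2.13% against 3.10%. The median log2 fold change of the 94 was −0.05 in liver and −0.12 in kidney.

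By list in liver, glycogen synthesis held 2 higher and 1 lower of 8 at that unadjusted limit, glycogen breakdown 1 higher of 11, and the phosphatase 1 list 0 of 5. Gluconeogenesis held 1 higher and 1 lower of 22, glycolysis 4 higher and 1 lower of 15, transporters 1 lower of 7, and hormone receptors and regulators 4 lower of 26. The regulators were Foxo3, a forkhead factor restrained by insulin signalling (6.69 ± 0.676 FPKM in LD and 4.31 ± 0.746 in ADV, log2 fold change −0.63 ± 0.14, SE, limma adjusted p = 0.290), Ppara, the fasting-responsive receptor (47.3 and 28.5, −0.75), Hnf4a, a hepatocyte identity factor (207 and 155, −0.42), and Gcgr, the glucagon receptor (58.5 and 50.6, −0.21). Foxo3, Ppara and Gcgr did not overlap between the conditions, with ADV below LD, a separation found for 1.89% of all genes tested in liver.

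The glycolytic genes that were higher at this limit in liver were isoforms of other tissues at low levels. Pfkp, the platelet phosphofructokinase, was at 0.263 FPKM in LD and 1.005 in ADV (log2 fold change 1.43 ± 0.38, SE, limma adjusted p = 0.296), with 2.13 in A94, and Hk1, Hk2 and Pkm were also highest in A94. Pklr, the liver pyruvate kinase, was lower, at 107, 93.4, 67.5 and 108 FPKM in LD and 31.3, 73.7, 80.1 and 31.6 in ADV (−0.91 ± 0.33, SE, limma adjusted p = 0.375). The remaining smallest p values in a list were those of Tpi1, triose phosphate isomerase (182 and 225 FPKM, log2 fold change 0.31), Gyg, glycogenin (2.01 and 3.08, 0.55), Slc2a5, the fructose transporter (2.44 and 1.17, −1.03), and Ppp1cb, a catalytic subunit of phosphatase 1 (31.8 and 35.0, 0.14). Tpi1, Gyg and Ppp1cb did not overlap between the conditions either, with every ADV liver above every LD liver. The share of all genes with that upward separation is not given here.

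In kidney the genes with the smallest p of their lists, each with a limma adjusted p of 0.9999, were the branching enzyme gene Gbe1 (21.3 FPKM in LD and 16.2 in ADV, log2 fold change −0.40), Phkb of phosphorylase kinase (15.3 and 12.7, −0.27), Ppp1cc (35.4 and 30.7, −0.22), the alanine aminotransferase gene Gpt2 (21.7 and 17.95, −0.36), Hk3 (0.104 and 0.658, 1.41), Slc2a9 (4.999 and 3.87, −0.62) and Ppara (20.1 and 12.9, −0.72). Gbe1 and Ppara did not overlap between the conditions and were lower in ADV, a separation found for 1.83% of all genes tested in kidney. These kidney counts turned on A115. Without it, 29 of the 94 genes were called (30.9%), 27 higher and 2 lower in ADV, against 18.8% of all genes, the lower ones being Gbe1 (−0.48, limma adjusted p = 0.0210) and Ppara (−0.43, 0.0425). With median ratio scaling as well, 17 were called (18.1%), 10 higher and 7 lower, against 16% of all genes, so the split by direction moved with the scaling. Ppara was thus below its LD range in the ADV mice of both organs, as Pck1 was, and the mice were the same in both.

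Between the organs, 66 of the 101 listed genes were called in LD mice and 63 in ADV mice, 65.3% and 62.4% against 66.6% and 62.9% of all genes. The LD genes with the smallest p of each list were Gyg and Gys1, both higher in kidney (log2 difference of liver minus kidney −2.92 and −3.89), and Gbe1 (1.48) for glycogen synthesis, and Stbd1, a glycogen-binding protein (3.03), Phkb (−1.86) and Phkg1 (−1.59) for breakdown. For the phosphatase list they were Ppp1cc (−1.57), Ppp1r3d (−1.58) and Ppp1r3a (0.75). With median ratio scaling these were −0.76, −1.14 and 1.01, and Phkb was −1.06. That scaling turned the LD split of the listed genes from 24 called higher and 42 lower in liver into 41 and 29. In gluconeogenesis Tat and Sds, which break down tyrosine and serine, were at 878 and 96.3 FPKM in LD liver and listed at 0 in LD kidney, and Ldhb, the lactate dehydrogenase subunit that favours lactate use, was at 1.97 FPKM in liver and 806 in kidney. In glycolysis Pfkfb1 was among the genes higher in liver, and Slc2a12, Slc5a1 and Slc5a2 were the kidney genes of transport. Among regulators, Creb3l3 (7.86) and Onecut1 (5.72) were higher in liver, and Ppargc1a, a coactivator of gluconeogenesis genes, was higher in kidney (−3.63), at 15.9 against 1.20 FPKM.

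The ADV mice gave the same 3 genes for every list but the phosphatase list, in which Ppp1cb (−0.79, and −0.051 with median ratio scaling) took the place of Ppp1r3d.

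Genes with the profile nearest to a member were found by the mean absolute difference of the centred log2 values over the 8 libraries of an organ. For Gys2 in liver these were Car1, Slc17a8 and Cyp46a1, at 0.223, 0.224 and 0.232 against a median of 0.641 over all genes. For Pck1 they were Brap, Ptch1 and Otud3 in liver (0.115 to 0.134, median 0.393) and Ephx2, Gldc and Sncaip in kidney (0.118 to 0.122, median 0.476). For G6pc they were Gabbr2, Col13a1 and Cyp26b1 in liver (0.217 to 0.246, median 0.588) and Cyp4a31, Tgoln1 and Eps8 in kidney (0.0639 to 0.0716, median 0.402). No gene was named for 2 of these 5 profiles, and none was another member.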

How the data were processed

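Poly(A)-enriched stranded RNA-seq with paired-end reads was made from 4 LD and 4 ADV livers and the kidneys of the same 8 mice, 16 libraries. Per the submitters' processing notes and methods, the authors trimmed adaptors with Trimmomatic, mapped reads with STAR 2.5.4b to GRCm38/mm10, dropped reads of low mapping quality with SAMtools and quantified exons of 32989 UCSC canonical genes with HOMER. The deposited values are FPKM, scaled by each library's total only, with no scaling between libraries. The study tested counts with DESeq2, which was not run here, since the files hold FPKM.

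limma 3.58.1 (R 4.3.3) with a trended prior was fitted to log2(FPKM + 0.1) over all genes with a mean above 0.5 fragments per 1000000, with Benjamini-Hochberg adjustment and a threshold of 0.05. Within an organ the fit used its 8 libraries. Organ contrasts and the interaction used all 16 in 1 fit. Exact permutation tests used scipy 1.17.1. The fits were tested on simulated data first. From each FPKM value, the length and the library total, the fragments came out in steps of 0.5 within 0.01 for 100% of values, which gave the limma-voom alternative. Library totals limit precision, and no counting intervals were computed.

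Mouse numbers pair liver and kidney because the same animals gave both. The correlation of a mouse's deviations in its organs was −0.00718 to 0.504. Replicates are separate mice, housed in groups, with the cage of each not given in the sources used here.

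The members and the gene lists were chosen with earlier results of these data known. Genes named beside the members were, for each list, the gene with the smallest p of ADV against LD in each organ, up to 3 genes called between organs, a fixed set of isoforms, and the 3 nearest profiles of 5 members by organ. Some genes that this rule selects are not reported here. Foxo3's companions Ppara, Hnf4a and Gcgr, and Hk1, Hk2, Pkm and Pklr in liver, were named after their values were seen. Alternatives were other pseudocounts, filters, scalings, variance priors, a block on the mouse, and fits that each drop 1 mouse.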

Additional observations from a re-analysis of the deposited data

Results flagged for a closer look

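Gys2 in the kidney of A91 stood apart from the other ADV kidneys. It was at 7.43 FPKM, and the other 3 ADV kidneys lay between 5.39 and 5.65 FPKM, so that the gap was 0.869 of the range of the group, above Dixon's 95% limit for 4 samples. It was the 1 such value among 34 groups of 4 examined, where chance alone gives about 1 in 20. The level lay within the LD kidney range of 4.74 to 8.25 FPKM.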

How the results depend on the processing

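No member was called in the liver under any alternative run. In the kidney, Pck1 was called without A115 (−0.55) and without A115 with median ratio scaling (−0.75), and G6pc only under the latter (−0.58). Over all genes, the count of 1 in liver became 6 with no filter and 0 under quantile normalization, and 0 to 9 with each mouse left out. The kidney count of 0 became 1 with both organs in 1 fit, 1 with the mouse as a replicate block, 2309 without A115 with median ratio scaling, and 0 to 2724 with each mouse left out. The interaction count of 0 became 3 with no filter, 1 under median ratio and 1 under quantile scaling, 416 without A115 with median ratio scaling, and 0 to 411 with each mouse left out. Members with no overlap in kidney were 1 (Pck1) in place of 2 under median ratio scaling, without mitochondrial genes and under quantile normalization. The alternatives for this overlap count were chosen after seeing the data. The replicate block changed no call of a member between conditions or organs. The cause of these changes was not tested.

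Signs turned for small differences. With 1 mouse left out, Pygl ranged from −0.11 to 0.066 in liver and from −0.22 to 0.17 in kidney, and Fbp1 in kidney from −0.25 to 0.19. Ppp1r3b in liver was −0.045 without A115 with median ratio scaling. Between organs in LD, Pck1 was −0.26 and Fbp1 −0.21 under quantile normalization, and G6pc 0.14 under median ratio scaling and 0.13 with A115 also left out. In ADV, Fbp1 was 0.72 and 0.62 under those scalings, and −0.26 to 0.13 with 1 mouse left out. Among interactions, Pygl was −0.12 without A115 with median ratio scaling, Ppp1r3b 0.077 at a pseudocount of 1, and Ppp1r3c 0.16 and 0.23 at pseudocounts of 0.5 and 1 and 0.052 under quantile normalization. With 1 mouse left out, interactions ranged from −0.20 to 0.27 for Pygl, −0.0062 to 0.30 for Pck1, −0.39 to 0.12 for G6pc, −0.61 to 0.098 for Ppp1r3b and −0.28 to 0.27 for Ppp1r3c.

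With 4 mice a group, the exact p of a single member cannot go below 0.0286, the feeding state of each mouse at sampling is not given in the sources used here, and FPKM levels do not measure glycogen, protein or enzyme activity. At 8 to 43 fragments, the kidney levels of Ppp1r3b and Ppp1r3c have wide counting error.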
